A study of Mus musculus with 235 samples.

Results

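The 9 genes described here, Mbp, Mog, Mag, Cnp, Mobp, Ugt8a, Opalin, Cldn11 and Mal, encode components of the myelin sheath and of the oligodendrocytes that form it. They are a list of names drawn up with earlier results of these data known, 9 of the 27998 genes of the count table, and all 9 were found there. Their RNA was counted in punches of 8 brain regions, taken from group-housed male C57Bl/6 mice aged 3 months. The synthetic glucocorticoid dexamethasone was given to 15 mice at 10 mg/kg intraperitoneally, saline (vehicle) to the other 15, and brains were collected after perfusion 4 h later. The regions carry the names PFC, AMY, PVN, CER, dCA1, dDG, vCA1 and vDG, which the labels do not spell out. The 30 mice gave 13 to 15 libraries per region and treatment, and 26 mice had a library in all 8 regions.

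Oligodendrocytes wrap axons of the central nervous system in many layers of lipid-rich membrane, which speeds conduction and supports the axon. The compact part of the sheath is held together by a few abundant membrane-binding proteins, its lipids are dominated by cholesterol and galactolipids, and a smaller set of adhesion and surface proteins sits at its inner and outer faces. The lineage factor Sox10 and the factors acting with it switch many of these genes on when a precursor cell matures. Dexamethasone acts mainly through the glucocorticoid receptor, a transcription factor found in neurons and glia. The 9 genes are markers of mature oligodendrocytes, so in punched tissue their RNA level follows both how many such cells a punch held and how much RNA each cell made, and these cannot be told apart here.

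The genes lie on 8 chromosomes of the mouse build mm10, and counting used all their exons. Mbp (myelin basic protein, which joins the cytoplasmic faces of compact myelin) spans chr18:82475146-82585637. Cnp (an enzyme of the non-compact myelin channels) spans chr11:100574904-100591729, and 154 bases, 4.23% of its exons, overlap Dnajc7 on the opposite strand. Whether the authors' counting used strand is not given in the sources used here. Mobp (a small basic protein of compact myelin) spans chr9:120149742-120181484, Mal (a raft-associated membrane proteolipid) chr2:127633226-127656695, and Cldn11 (the claudin of the tight junctions between myelin layers) chr3:31149920-31164324. Mag (an adhesion protein facing the axon) spans chr7:30899176-30914873, Mog (an immunoglobulin-family protein of the outermost surface) chr17:37010743-37023398, Ugt8a (the enzyme that makes galactosylceramide) chr3:125865271-125938619, and Opalin (a small transmembrane glycoprotein of oligodendrocytes) chr19:41062474-41077113.

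Library totals ranged from 268538 to 1451422 counts with a median of 742957, and RNA integrity numbers (RIN) ranged from 2.2 to 9.0, with 24 libraries below 5. Marker genes of the labelled region were present for PVN (Sim1, 14.2 CPM, counts per scaled library total; Oxt, 483 CPM). The dentate granule cell gene Prox1 was as high in dCA1 (463 CPM) as in dDG (448 CPM). The cerebellar genes Gabra6 (granule cells) and Pcp2 (Purkinje cells) were nearly absent from CER, with 11 and 10 counts over its 30 libraries and 0 counts of each gene in 26 of them. By contrast, 4 other libraries held 157 to 289 counts of Gabra6: vDG vehicle replicates 4 and 15, vDG dexamethasone replicate 13 and vCA1 vehicle replicate 15. No other library had more than 19. Results that change when these 4 libraries are left out are given with both values. The label CER is therefore used only as a name, and no statement about the cerebellum is made.

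The 250 bases before the start site are printed for the genes at the ends of the order of response described further on, Opalin and Ugt8a with the lowest and Mobp and Mal with the highest dexamethasone values; these were picked after the values were seen. The sequences are RefSeq's (GRCm38.p6), 5′ to 3′ on the strand of the gene, with matches in capitals. The Opalin stretch is chr19:41077114-41077363 (minus strand), that of Ugt8a chr3:125938653-125938902 (minus strand), that of Mobp chr9:120149492-120149741 (plus strand) and that of Mal chr2:127656696-127656945 (minus strand).
Opalin: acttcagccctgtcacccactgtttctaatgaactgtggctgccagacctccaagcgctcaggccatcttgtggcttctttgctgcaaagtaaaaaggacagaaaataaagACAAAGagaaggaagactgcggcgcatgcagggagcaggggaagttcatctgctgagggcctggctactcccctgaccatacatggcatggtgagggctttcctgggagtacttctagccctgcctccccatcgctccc
Ugt8a: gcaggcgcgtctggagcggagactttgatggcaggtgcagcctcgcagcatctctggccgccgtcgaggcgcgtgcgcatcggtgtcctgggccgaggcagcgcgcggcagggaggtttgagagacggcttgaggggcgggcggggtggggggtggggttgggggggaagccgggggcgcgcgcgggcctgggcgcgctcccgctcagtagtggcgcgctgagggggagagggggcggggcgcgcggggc
Mobp: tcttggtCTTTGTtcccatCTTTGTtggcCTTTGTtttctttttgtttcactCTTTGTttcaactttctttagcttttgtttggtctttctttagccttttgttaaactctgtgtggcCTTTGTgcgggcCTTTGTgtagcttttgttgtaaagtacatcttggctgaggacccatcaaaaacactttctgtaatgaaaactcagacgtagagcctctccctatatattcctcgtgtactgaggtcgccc
Mal: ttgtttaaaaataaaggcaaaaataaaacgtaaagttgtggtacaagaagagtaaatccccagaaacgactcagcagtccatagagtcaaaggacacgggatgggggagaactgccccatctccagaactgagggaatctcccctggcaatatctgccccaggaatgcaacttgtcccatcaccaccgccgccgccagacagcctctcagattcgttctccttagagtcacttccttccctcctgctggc

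The capitals mark words of the SOX family of factors, ACAAAG or ACAATG on either strand, which 25.2% of 32851 RefSeq promoter windows of the same length held. The Mobp window held 6 such words and the Opalin window held 1, whereas the windows of Ugt8a and Mal held 0. Among the others, Cnp held 1, Mog and Cldn11 held 0, and Mag held 1 before 2 of its 3 listed starts. The glucocorticoid receptor half-site AGAACA, present in 16.1% of windows, and the full site, made of this word and its reverse complement 3 bases apart and present in 3 windows, were searched on both strands and matched in none of these windows of the 8 genes. A match describes letters only, and a window without one says nothing about binding elsewhere. The Mbp window was not analysed here.

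The first comparison asked how the myelin genes differ between regions of vehicle-treated mice. All 9 differed across the 8 regions (edgeR quasi-likelihood F test with the animal as block, adjusted p 4.6e-18 or smaller), as did 73.3% of the 10451 genes tested. CER had the highest mean of 8 genes and AMY that of Mal, and PFC had the lowest mean of all 9. RNA quality differed too: the mean RIN of vehicle libraries was 7.75 in PFC, 6.07 in CER and 6.11 in AMY. With RIN as a covariate all 9 genes still differed across the regions. The ratio of the highest to the lowest regional mean ran from 4.14 for Opalin to 7.62 for Mobp.

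Mbp in CER lay between 2871 and 6435 CPM with a median of 5060, and its mean was 4827 ± 1003 CPM (SD, n = 15). In PFC it lay between 498 and 2875 CPM with a median of 841, and its mean was 982 ± 592 CPM (SD, n = 15), a log2 difference of 2.37 ± 0.19 (SE) in the fit. The groups overlapped only through 1 PFC library, vehicle replicate 2, which was the highest of its group for all 9 genes and held 2875 CPM of Mbp against 1447 in the next. AMY was between them at 3266 ± 809 CPM (SD, n = 15).

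Mobp spread most between regions. It stood at 2110 ± 470 CPM (SD, n = 15) in CER, at 1372 ± 384 CPM (SD, n = 15) in AMY and at 277 ± 268 CPM (SD, n = 15) in PFC. Mag, the axon-facing adhesion protein, had the next largest ratio, 7.06, from 362 ± 133 CPM in CER to 51.3 ± 29.8 CPM in PFC (SD, n = 15 each).

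Mog, Ugt8a, Cnp and Cldn11 followed the same ends of the order. Mog stood at 122 ± 41.5 CPM in CER and 20.5 ± 14.5 CPM in PFC, and Ugt8a at 149 ± 56.4 and 26.8 ± 28.3 CPM (SD, n = 15 each). Cnp stood at 459 ± 89.1 and 104 ± 50.6 CPM, and Cldn11 at 518 ± 118.2 and 116 ± 79.8 CPM (SD, n = 15 each). For these genes CER and AMY did not differ past the threshold (log2 differences of 0.10 to 0.51), nor did they for Opalin, at 55.0 ± 10.9 CPM in CER and 54.6 ± 17.5 CPM in AMY, or Mal, at 351 ± 74.5 CPM in CER and 353 ± 90.0 CPM in AMY (SD, n = 15 each).

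**Figure D1:**
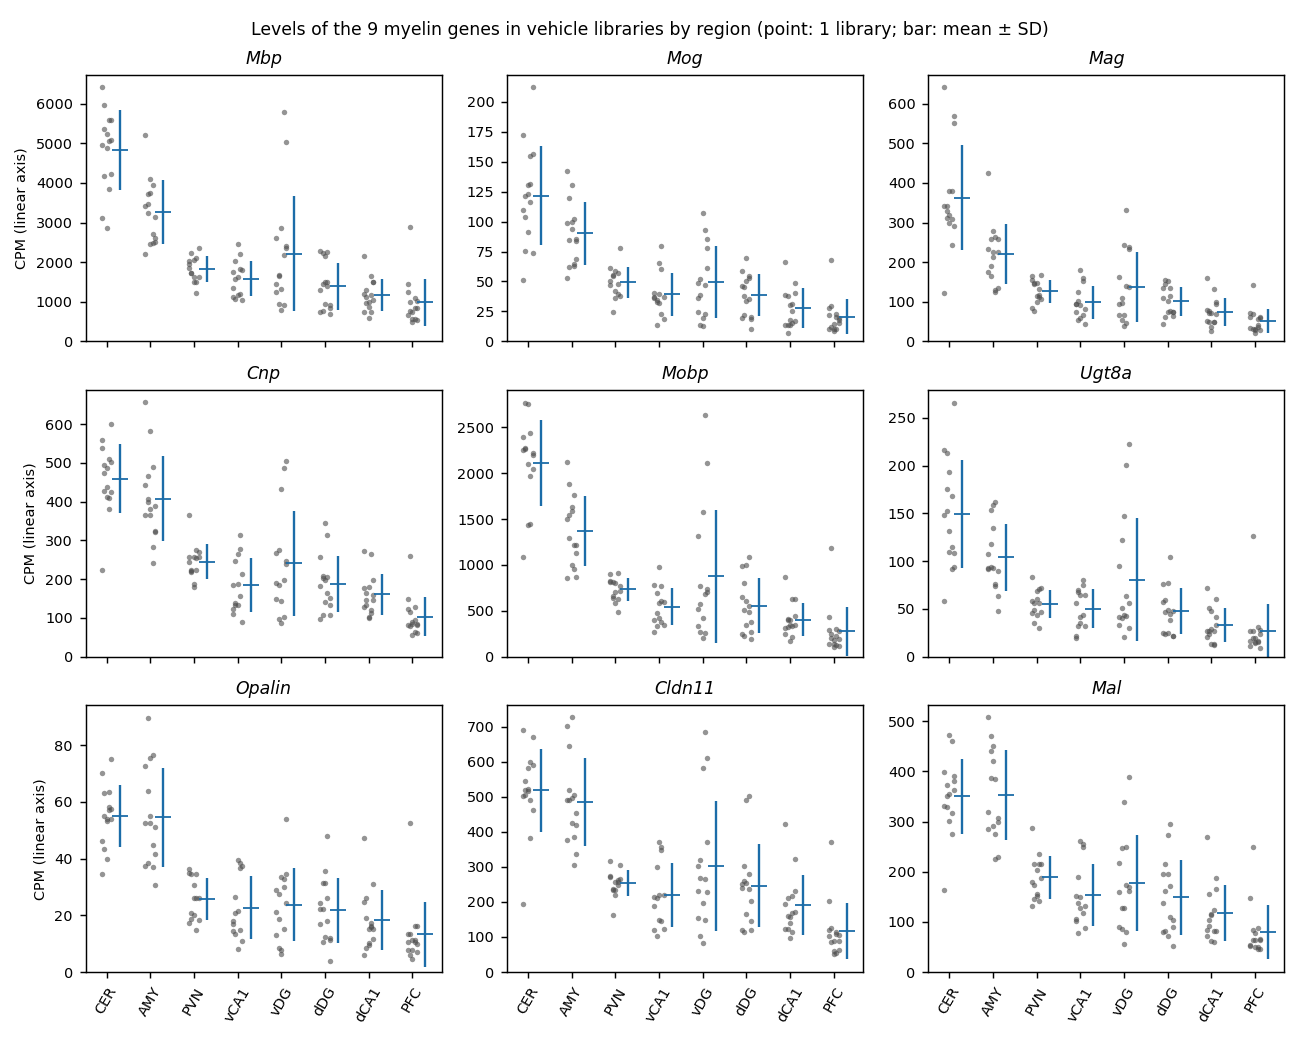
Level of each of the 9 myelin genes in CPM (y axes, linear, each from 0 and on its own scale) in every vehicle library of the 8 regions (x axis); points are libraries and bars are mean ± SD over 14 or 15 libraries. CER and AMY are at the top and PFC at the bottom of each panel, vDG has the largest SD in 6 of the 9, and 1 PFC library lies far above the rest of its group in all 9 panels.

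Ordering the 8 regions by mean gave 63 pairs of neighbours over the 9 genes, of which 15 differed past the threshold (edgeR, adjusted p under 0.05; over all 28 pairs of regions 31.4% of gene tests did). CER exceeded AMY for 3 genes, Mbp, Mag and Mobp, in a pair of regions where 25.8% of all genes differed. The step from the upper 2 regions to the third passed for 8 of 9 genes, all but Ugt8a, with log2 differences of 0.62 (Mbp) to 1.06 (Opalin). The last step, from dCA1 to PFC, passed for 4 genes, Cnp, Mobp, Cldn11 and Mal, where 32.7% of all genes differed. Without vehicle replicate 2 of PFC, 22 neighbour pairs passed and the last step passed for all 9 genes. This library was picked as the highest of its group for all 9, so leaving it out lowers PFC by the choice itself. Between the upper steps and the last step, 0 of 36 neighbour pairs passed, so the order of PVN, vDG, vCA1, dDG and dCA1 was not resolved. Among pairs that are not neighbours, vDG exceeded dCA1 for 7 genes (23.9% of all genes differed) and PVN exceeded dCA1 for 7 (47.4%).

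Among the 4 hippocampal labels, vDG exceeded dDG for 1 gene (15.3% of all genes differed) and vCA1 exceeded dCA1 for 1 (22.1%), beside the 7 of vDG against dCA1. Between dCA1 and dDG 0 of 9 genes passed, which is near the 1.89% of all genes and no result about the 9. Between vCA1 and vDG 0 of 9 passed, against 12.5% of all genes. vDG had the largest SD of the 8 regions for 6 genes, CER for Mag and Mog, and AMY for Opalin. In vDG, Mbp ranged from 786 to 5781 CPM with a median of 1673, and Mobp from 208 to 2637 CPM with a median of 684. The 2 vDG vehicle libraries with Gabra6 counts lay inside that range, at 2176 and 2398 CPM of Mbp, and leaving out the libraries with Gabra6 counts again gave 15 neighbour pairs past the threshold.

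A second question was whether the 9 genes vary together between mice treated alike. Within each region, Mbp was set against each of the other 8 genes across its 14 or 15 vehicle libraries, on the scale log2(CPM + 1), in 64 relations. All 64 Pearson coefficients were above 0, from 0.10 to 0.99 with a median of 0.82. With Benjamini-Hochberg adjustment over the 64 relations, 54 passed a permutation test on Pearson's r and 51 on Spearman's rho. Of all other genes with a mean of at least 5 CPM in the region, set against Mbp in the same libraries, 4.49% had a coefficient above 0 and a p no larger than those that passed. Without the 2 libraries farthest from the median of Mbp, the median r was 0.75 and 61 of the 64 stayed above 0.

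The tightest partner of Mbp was Mobp, with r from 0.82 to 0.99 over the 8 regions, and it passed in all 8. Ugt8a was the loosest, with r from 0.10 to 0.82. In vDG r ran from 0.82 to 0.97, and without the 2 farthest libraries from 0.64 to 0.97. PFC gave r from 0.72 to 0.99, but from 0.20 to 0.97 without 2 libraries, 1 of them the high vehicle replicate 2. PVN and CER were the exceptions: in PVN r ran from 0.10 to 0.82 and 2 of 8 relations passed, and in CER r ran from 0.37 to 0.84 and 4 of 8 passed. Libraries of a region were split over 4 plates. With the plate means removed and permutation within plates, r ran from 0.11 to 0.99 with a median of 0.86, and 52 of the 64 relations passed.

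Across all vehicle libraries, the genes most like the mean of the 9 were other oligodendrocyte genes, given as a description because the libraries share regions and animals. Ermn (a cytoskeletal linker of myelinating cells) was among the closest of 11507 genes, with r of 0.97. Others among the 10 closest were Bcas1, Tspan2, Trf (transferrin), Prr18, Tmem88b, Plekhb1, Qdpr and Gjc3 (a connexin), with r from 0.96 down to 0.93. After each region was centred on its own mean, these coefficients were 0.83 to 0.92. Of the 9 genes themselves, Mobp was closest to the mean of the other 8 without centring (r 0.97) and Cldn11 after it (0.94), and Ugt8a was farthest both ways (0.89 and 0.73).

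The main comparison of the study was dexamethasone against vehicle. Opalin fell in 5 regions, Ugt8a in 2 and Mog in 1, and no myelin gene rose in any region. Mal passed as higher in PFC only when 1 high vehicle library, or this and 1 high dexamethasone library, were left out. Those libraries were picked for their high levels of these genes, as described further on. The falls are 8 of the 70 gene and region pairs that could be tested, all lower, where 1.94% of all such pairs were lower and 3.23% higher (edgeR's quasi-likelihood test in each region, adjusted p under 0.05). By region, the share of all genes called lower was lowest in vDG (1.29%) and dDG (1.37%), and elsewhere it was 2.04% (vCA1), 2.06% (PVN), 2.08% (AMY), 2.11% (dCA1) or 2.28% (CER and PFC). Of the 70 fold changes, 54 were below 0, as were 51.9% of those of all gene and region pairs. At an unadjusted p under 0.05 there were 21 lower and 1 higher, beside 6.55% lower and 7.24% higher of all pairs. The median log2 fold change of the 9 genes was lowest in vCA1 (-0.45) and vDG (-0.38) and was 0.01 in PFC (0.25 without the vehicle library, 0.076 without both), beside medians of all genes between -0.02 and 0.00. Same-numbered vehicle and dexamethasone mice shared a library plate, and with that number as a block the count was 13, all lower, where 2.55% of all pairs were lower, the additional 5 being Opalin in dDG, Mog in dDG, and Ugt8a in PVN, dCA1 and dDG.

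Opalin in AMY ranged from 30.6 to 89.6 CPM with a median of 52.4 under vehicle, and from 10.1 to 34.96 CPM with a median of 26.1 under dexamethasone. All 15 dexamethasone libraries lay below the vehicle median, and the groups overlapped only at their edges. The log2 fold change was -1.13 ± 0.16 (SE, edgeR adjusted p 1.72e-06), a ratio of 0.46.

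In CER, Opalin ranged from 34.7 to 75.0 CPM with a median of 55.0 under vehicle, and from 17.8 to 39.5 CPM with a median of 27.4 under dexamethasone. Again all 15 treated libraries were below the vehicle median, with a narrow overlap. The log2 fold change was -0.91 ± 0.12 (SE, adjusted p 1.97e-07).

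Opalin was less abundant in PVN, where it ranged from 14.8 to 36.3 CPM (median 26.0) under vehicle and from 3.25 to 25.0 CPM (median 13.8) under dexamethasone. The log2 fold change there was -0.83 ± 0.18 (SE, adjusted p 0.00123). The treated libraries were again all below the vehicle median.

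In vCA1, Opalin had its steepest fall, from a range of 7.97 to 39.6 CPM (median 19.4) to one of 1.32 to 19.2 CPM (median 9.3). The log2 fold change was -1.35 ± 0.25 (SE, adjusted p 0.000275). In vDG it went from 6.44 to 53.9 CPM (median 24.4) to 3.05 to 23.9 CPM (median 8.1), a log2 change of -1.07 ± 0.29 (SE, adjusted p 0.0196). With the level of other mature oligodendrocyte genes as a covariate, described further on, the vCA1 value was -0.72 and its call was lost (adjusted p 0.074), while Opalin still passed in the other 4 regions. The vDG call did not hold without the 3 vDG libraries with Gabra6 counts (-0.91, adjusted p 0.115), nor in libraries with a RIN of at least 5 (-1.01, adjusted p 0.08).

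In the remaining 3 regions the Opalin values pointed the same way but were not called. In dDG the log2 fold change was -0.72 ± 0.29 (SE, adjusted p 0.213), with medians of 22.3 CPM under vehicle and 9.59 CPM under dexamethasone. In PFC and dCA1 the gene did not reach the minimum count, with 157 vehicle and 65 dexamethasone counts in PFC and 197 and 103 in dCA1. Without that minimum, the log2 fold change was -1.06 ± 0.31 (SE, adjusted p 0.0352) in PFC and -0.88 ± 0.27 (SE, adjusted p 0.0602) in dCA1. The single library with 0 Opalin counts was a dexamethasone library of PFC, whose total allows a level of up to 6.62 CPM (3 counts, counting error only).

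**Figure D2:**
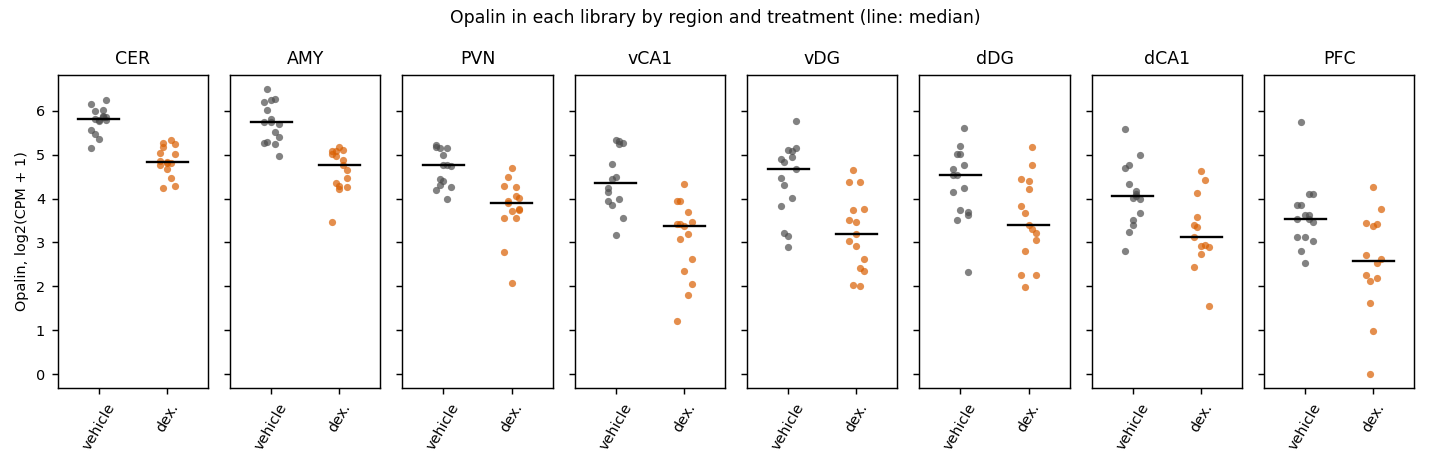
Opalin level in every library, as log2(CPM + 1) on the y axis, for vehicle (grey) and dexamethasone (orange) in each of the 8 regions, ordered as in the plot of vehicle levels; lines are medians. The dexamethasone median is below the vehicle median in all 8 regions, and in AMY, CER, PVN, vCA1 and vDG every dexamethasone library is below the vehicle median.

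Ugt8a, which makes the galactolipids of myelin, fell in AMY and vCA1. In AMY it ranged from 47.8 to 161 CPM (median 93.1) under vehicle and from 39.5 to 102 CPM (median 71.1) under dexamethasone. The log2 fold change was -0.58 ± 0.15 (SE, adjusted p 0.0133), and 13 of 15 treated libraries lay below the vehicle median. With the mature oligodendrocyte covariate the value was -0.35 and the call was lost (adjusted p 0.0761).

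In vCA1 it ranged from 19.4 to 80.4 CPM (median 49.8) under vehicle and from 10.4 to 71.8 CPM (median 25.4) under dexamethasone, a log2 change of -0.70 ± 0.21 (SE, adjusted p 0.031). The 2 groups shared most of their range. The vCA1 call was lost under several alternatives. The value was -0.64 (adjusted p 0.0662) with punching date and plate as factors and -0.65 (adjusted p 0.0643) in the libraries of the authors' variance-stabilised tables. With the level of dentate genes as a covariate it was -0.54 (adjusted p 0.436). The call was also lost with the Mbp level (-0.43, adjusted p 0.175) and with the mature oligodendrocyte level (-0.12, adjusted p 0.868) as a covariate. In the other 6 regions the Ugt8a fold changes were also below 0, from -0.29 in PFC to -0.80 in vDG, and did not pass. The PFC value was 0.12 without the high vehicle library and -0.41 without the high dexamethasone library. With punching date and plate as factors, Ugt8a passed as lower in PVN and vDG.

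Mog, the outer surface protein, fell in AMY, from a range of 53.2 to 142 CPM (median 85.3) to one of 25.6 to 107 CPM (median 63.0). The log2 fold change was -0.58 ± 0.17 (SE, adjusted p 0.0303), and in libraries with a RIN of at least 5 it was -0.46 (adjusted p 0.18). With the mature oligodendrocyte covariate it was -0.31 (adjusted p 0.106). Mog was below 0 in 7 of 8 regions and at 0.03 in PFC. There it was at 0.26 without the high vehicle library and -0.17 without the high dexamethasone library. In vCA1 the fall of Mog was larger than in AMY, -0.68 ± 0.24 (SE), but did not pass (adjusted p 0.0908).

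The other 6 genes passed in no single region. Mag and Cnp had fold changes below 0 in all 8 regions, from -0.61 to -0.23 and from -0.44 to -0.09. Cldn11 was below 0 in 7 regions and at 0.00 in PFC. The PFC values rest on single libraries: without the high vehicle library there, Mag was at -0.043, Cnp at 0.074 and Cldn11 at 0.25. Without the high dexamethasone library of PFC alone, Mag was at -0.38, Cnp at -0.19 and Cldn11 at -0.15.

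Mbp was below 0 in 5 regions, from -0.31 in vCA1 to 0.09 in PFC. Its PFC value was 0.31 without the high vehicle library and -0.11 without the high dexamethasone library (replicate 14). In AMY it ranged from 2207 to 5222 CPM (median 3243) under vehicle and from 1330 to 4713 CPM (median 3124) under dexamethasone, a log2 fold change of -0.05 ± 0.13 (SE). These 2 groups covered nearly the same values.

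Mobp was above 0 in 6 of 8 regions, from -0.20 in vDG to 0.18 in PFC, where it was 0.57 (unadjusted p 0.0157) without the high vehicle library and -0.11 without the high dexamethasone library. Its AMY libraries ranged from 862 to 2119 CPM (median 1292) under vehicle and from 523 to 2343 CPM (median 1499) under dexamethasone. Mal was above 0 in 5 regions, and in PFC it had the only higher value at an unadjusted p under 0.05 (0.44 ± 0.21, SE, adjusted p 0.279), with medians of 63.0 CPM under vehicle and 89.7 CPM under dexamethasone. Without the high vehicle library of PFC, the 8 genes tested there had log2 fold changes from -0.04 (Mag) to 0.67 (Mal) with a median of 0.25, and Mal passed (0.67 ± 0.17, SE, edgeR adjusted p 0.00723), as did 3.91% of all genes in that direction. That library was picked as the highest for all 9 genes, so leaving it out moves these values up by the choice itself. The dexamethasone libraries of PFC held a high one too, replicate 14, the highest of its group for 8 of the 9 genes, with 2761 CPM of Mbp against 1665 in the next. Without both libraries the values ran from -0.20 (Mag) to 0.54 (Mal) with a median of 0.076, and Mal passed again (0.54 ± 0.15, SE, edgeR adjusted p 0.024), as did 3.73% of all genes in that direction. Without the dexamethasone library alone the values ran from -0.41 (Ugt8a) to 0.31 (Mal) with a median of -0.16, and 0 of the 8 genes passed.

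**Figure D3:**
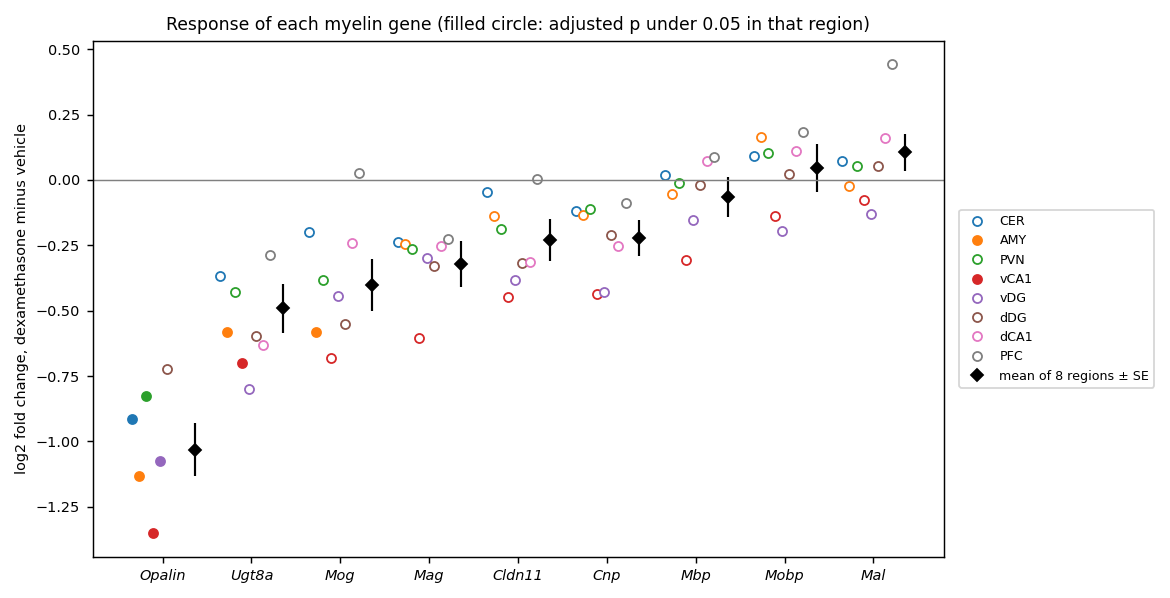
Log2 fold change, dexamethasone minus vehicle (y axis), of each of the 9 myelin genes (x axis) in each region (coloured circles, filled where the adjusted p is under 0.05) and as the mean of the 8 regions with its SE (black diamonds). Genes are ordered by that mean, from Opalin at -1.03 to Mal at 0.11; all filled circles belong to Opalin, Ugt8a and Mog, and Opalin has no circle in PFC and dCA1.

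The mean of the 8 regional effects was then tested in 1 fit of all libraries, with the animal as a correlated block (limma voom, 11053 genes). Of the 9 genes, 6 fell and 0 rose, where 11% of all genes were lower and 9.92% higher. Opalin fell most, by 1.03 ± 0.10 (SE, adjusted p 7.58e-19), which is a ratio of 0.49. Ugt8a fell by 0.49 ± 0.09 (SE, adjusted p 4.09e-06) and Mog by 0.40 ± 0.10 (SE, adjusted p 0.000603). Smaller falls were those of Mag (0.32 ± 0.09, SE, adjusted p 0.0025), Cldn11 (0.23 ± 0.08, SE, adjusted p 0.0264) and Cnp (0.22 ± 0.07, SE, adjusted p 0.008).

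The 3 remaining genes did not pass: Mbp at -0.07 ± 0.08 (SE, adjusted p 0.634), Mobp at 0.05 ± 0.09 (SE, adjusted p 0.814) and Mal at 0.11 ± 0.07 (SE, adjusted p 0.347). The median of the 9 was -0.23, beside -0.01 for all genes tested. The call of Cldn11 was lost without vCA1 (-0.19, adjusted p 0.103), and the other 5 held.

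In values of single mice, taken as the mean over regions of log2(CPM + 1) less the vehicle mean of the region, Opalin ranged from -0.45 to 0.53 in the 15 vehicle mice (median 0.02) and from -1.40 to -0.39 in the 15 dexamethasone mice (median -1.03). Of the dexamethasone mice, 14 were below the lowest vehicle mouse. Ugt8a ranged from -0.48 to 0.53 (median 0.12) and from -1.13 to -0.16 (median -0.47), so the groups overlapped, with 7 treated mice below every vehicle mouse. Mog, Mag, Cnp and Cldn11 had all 15 treated mice below the vehicle median, with 7, 4, 6 and 3 below every vehicle mouse.

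The other 3 genes showed no such shift. For Mbp, 8 of 15 treated mice were below the vehicle median, for Mobp 6 and for Mal 3. Mobp had a wide spread in both groups, from -0.56 to 0.51 under vehicle and from -0.46 to 0.30 under dexamethasone.

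**Figure D4:**
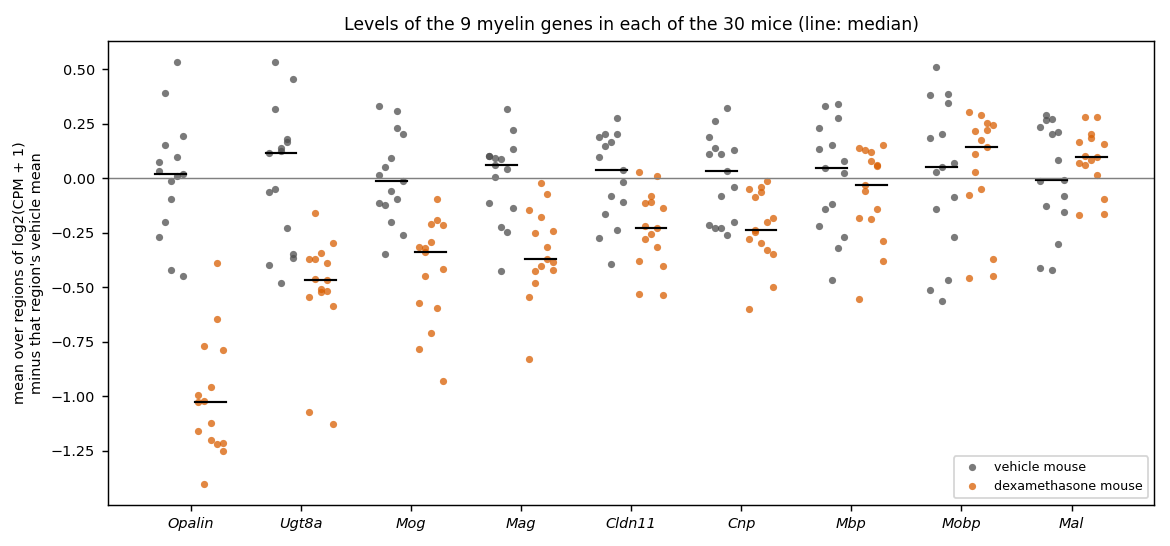
Level of each of the 9 myelin genes in each of the 30 mice (y axis: mean over the mouse's regions of log2(CPM + 1) minus the vehicle mean of that region; grey vehicle, orange dexamethasone, lines are medians). Opalin separates 14 of 15 treated mice from all vehicle mice, while the 2 groups of mice overlap over most of their range for Mbp, Mobp and Mal.

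For the genes that fell, the mean difference over regions was below 0 on all 4 plates and on all 4 punching dates used. These are splits of the same libraries in which the genes were found to fall, so they add no separate support. Over the 32 combinations of region and library plate, the Opalin difference was below 0 in all 32, Ugt8a in 30, Cnp in 26, and Mog, Mag and Cldn11 in 25 each. Over 32 combinations of region and punching date it was below 0 in 30 for Opalin, 27 for Ugt8a, 26 for Cnp and Cldn11, 25 for Mag and 24 for Mog. Only dates with at least 2 libraries per treatment in a region were used, and the remaining date was left out. Mbp was below 0 in 19 and 16, Mobp in 15 and 13, and Mal in 12 and 14.

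Whether the 9 genes moved alike was asked by comparing them with Mbp, a reference picked after the values were seen. With the Mbp level of the same library as a covariate in the fit of all regions, the same 6 genes were lower and Mobp (0.11 ± 0.03, SE, adjusted p 0.00259) and Mal (0.14 ± 0.04, SE, adjusted p 0.00907) were higher, where 11.5% of all genes were lower and 10.1% higher. Opalin stood at -1.01 ± 0.08 and Ugt8a at -0.47 ± 0.07 (SE). In single mice, the Opalin value less the Mbp value lay between -0.40 and 0.42 under vehicle and between -1.53 and -0.45 under dexamethasone, so the groups did not overlap. How many of all genes would separate the mice in this way was not counted. For Mobp less Mbp the value lay between -0.29 and 0.18 and between -0.08 and 0.36, and the groups overlapped. In this fit all 8 genes thus passed the threshold beside Mbp, 6 below and 2 above it.

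A second reference was the mean level of other mature oligodendrocyte genes, which is not independent of the treatment since 13 of its 29 tested genes themselves fell. With that level as a covariate, 6 of the 9 genes again passed but the split turned to 2 lower and 4 higher, where 12% of all genes were lower and 10.6% higher: Opalin (-0.75 ± 0.07) and Ugt8a (-0.18 ± 0.06) remained lower, and Mobp (0.45 ± 0.03), Mal (0.39 ± 0.04), Mbp (0.26 ± 0.03) and Cldn11 (0.12 ± 0.03, SE each) were higher. Mog (-0.05), Mag (0.02) and Cnp (0.07) did not pass. In the single regions the same covariate gave 21 pairs past the threshold, 4 lower and 17 higher (2.02% and 3.6% of all pairs).

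Whether the response differed between regions was also tested. In a test of the 7 terms for region by treatment with the animal as block, 0 of the 9 genes passed (edgeR, adjusted p 0.9998 for each), against 1.27% of 11053 genes, so the count is near the share of all genes and no result about the 9. At an unadjusted p under 0.05 there were also 0, the smallest being 0.512 for Mal. A difference between regions that was small beside the spread between libraries within mice could have gone unseen.

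Other genes of mature oligodendrocytes and myelin were taken from a list, as were the groups that follow. In the same fit 11% of all genes were lower and 9.92% higher. Of 29 tested genes that are not among the 9, 13 fell, 1 rose and 15 did not pass, with a median of -0.17. The 3 with the smallest p were Car2 (carbonic anhydrase 2, enriched in oligodendrocytes), at -0.57 ± 0.05 (SE, adjusted p 1.35e-23), from a mean of 280 CPM to 184 CPM, Pde4b (a cyclic AMP phosphodiesterase, also expressed by other cells), at -0.38 ± 0.04 (SE, adjusted p 2.85e-20), and Evi2a, at -0.79 ± 0.09 (SE, adjusted p 2.79e-15). Car2 was lower in all 8 regions. Apod (apolipoprotein D), singled out after its value was seen as the gene that rose, was at 0.46 ± 0.07 (SE, adjusted p 9.37e-09).

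The 10 genes that followed the 9 most closely across vehicle libraries gave 5 that fell and 5 that did not pass. Ermn (-0.65), Tmem88b (-0.77), Gjc3 (-0.50), Prr18 (-0.36) and Trf (-0.22) fell. Among those that did not pass were Bcas1 (-0.06), Tspan2 (-0.13), Plekhb1 (-0.05) and Qdpr (-0.14).

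For the lipids of the sheath, 3 of 11 tested genes of galactolipid and very long chain lipid synthesis fell and 1 rose, beside 11% lower and 9.92% higher of all genes. Aspa (the enzyme that releases acetate from N-acetylaspartate in oligodendrocytes) was at -1.24 ± 0.11 (SE, adjusted p 5.53e-23), from a mean of 35.8 CPM to 15.3 CPM. Sgms1 (sphingomyelin synthase) was at 0.26 ± 0.04 (SE, adjusted p 2.95e-10). Of 18 cholesterol synthesis genes, 7 were higher (9.92% of all genes were), 0 were lower and 11 did not pass, with a median of 0.08. Hsd17b7, an enzyme of the pathway, was at 0.25 ± 0.05 (SE). Cholesterol synthesis genes are expressed in most brain cells.

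Among 11 tested transcription factors of the lineage, 5 fell, where 11% of all genes did, and 1 rose, which is near the 9.92% of all genes. Sox10, the factor that maintains oligodendrocyte identity, was at -1.15 ± 0.07 (SE, adjusted p 4.71e-38) and fell in all 8 regions, from 114 ± 36.1 CPM to 49.1 ± 15.3 CPM (SD, n = 15 each) in AMY and from 130 ± 26.8 CPM to 44.0 ± 9.93 CPM (SD, n = 15 each) in CER. Nkx6-2, a homeobox factor of maturing oligodendrocytes, was at -1.43 ± 0.13 (SE, adjusted p 2.98e-21). Sox8, a relative of Sox10, went up by 0.51 ± 0.05 (SE, adjusted p 1.04e-18). The other 3 that fell were Zeb2 (-0.39), Nkx2-2 (-1.31) and St18 (-0.35), named after their values were seen.

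Of 16 genes of precursor and premyelinating cells, 2 fell and 2 rose, which is near the shares of all genes (11% and 9.92%) and no result about the group. Cnksr3 rose by 1.05 ± 0.10 (SE, adjusted p 2.98e-21) and Neu4 (a sialidase) by 0.47 ± 0.07 (SE, adjusted p 8.12e-09). Cspg4, the NG2 proteoglycan of precursors, fell by 0.45 ± 0.10 (SE, adjusted p 9.43e-05).

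**Figure D5:**
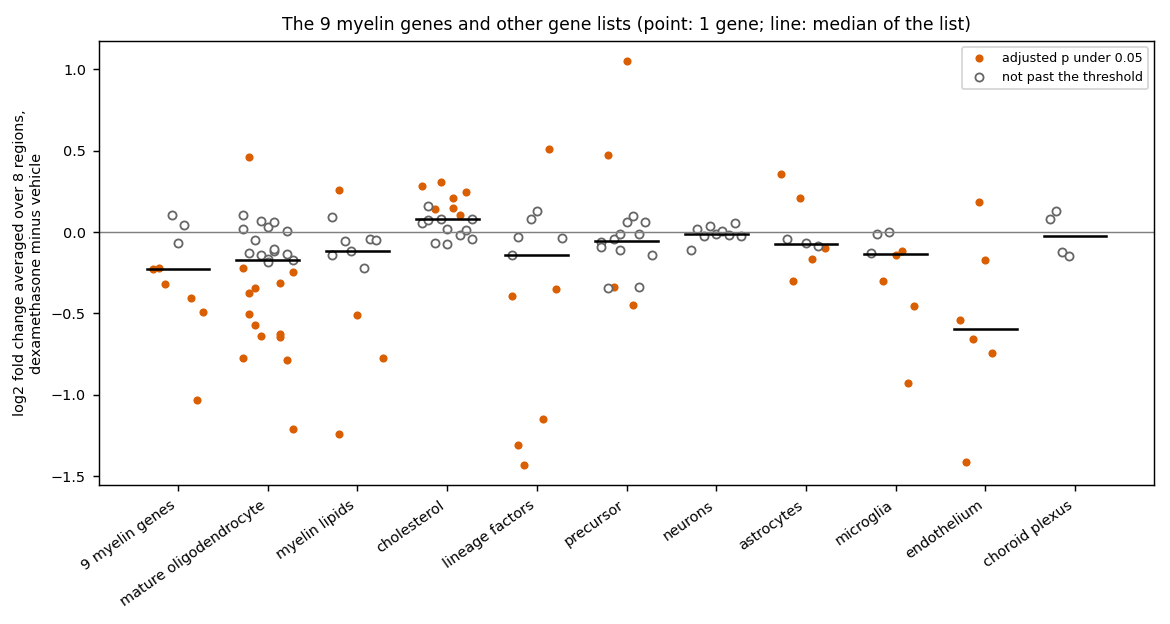
Log2 fold change averaged over the 8 regions, dexamethasone minus vehicle (y axis), for each tested gene of the 9 myelin genes and of 10 other lists (x axis); filled points have an adjusted p under 0.05, open points do not, and lines are list medians. The 9 myelin genes lie mostly below 0, the 3 lowest lineage factors are lower than any of the 9, and cholesterol genes past the threshold all lie above 0.

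Markers of other cell types also moved, in the fit where 11% of all genes were lower and 9.92% higher. Endothelial markers were lower for 5 of 6 tested genes and higher for 1, with Flt1 at -0.66, Slco1a4 at -0.74 and Cldn5 at -1.41, and the median summed level went from 365 to 260 CPM (205 to 920 CPM over vehicle and 164 to 494 CPM over dexamethasone libraries). Microglial markers were lower for 5 of 8 and higher for 0, led by P2ry12 (-0.92), C1qc (-0.30) and Tmem119 (-0.45), with a summed median of 436 and 397 CPM (260 to 941 and 199 to 873 CPM). Astrocyte markers gave 3 lower and 2 higher of 8, with Aldh1l1 at 0.36, Aqp4 at -0.30 and Fgfr3 at 0.21 (summed 4407 to 16215 and 3731 to 13336 CPM).

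Of the 9 neuronal markers, 0 passed, where 11% of all genes were lower and 9.92% higher. Gad1 was at -0.11, Stmn2 at 0.05 and Nefl at 0.04 (summed 4709 to 9389 CPM under vehicle and 4891 to 9109 CPM under dexamethasone). Choroid plexus markers gave 0 of 4 past the threshold (Kl -0.12, Otx2 -0.15, Kcnj13 0.13, summed 3.19 to 667 and 0 to 935 CPM), which is near those shares and no result about the group. Schwann cell markers, which would show peripheral nerve, reached the minimum count for 0 of 5 genes, with a summed median of 2.83 CPM under vehicle and 2.47 CPM under dexamethasone. At the same time the summed level of the 9 myelin genes had a median of 3170 CPM (857 to 11235) under vehicle and 2921 CPM (799 to 10788) under dexamethasone. The part of the changes in other cell types in the myelin gene results was not tested.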

How the data were processed

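Libraries were made from the 3' ends of punch RNA with a kit that adds unique molecular identifiers, and were read from 1 end, per the labels' protocols. The authors deposited 1 table of counts per gene, and per the submitters' processing notes they used cutadapt, UMI-tools 0.5.4, STAR 2.6.0a and featureCounts 1.6.4 on build mm10; the annotation release and the use of strand are not given in the sources used here. The authors also deposited variance-stabilised log2 values per region (DESeq2 1.30.1), which held all but 7 of the libraries and were used here only to define an alternative set of libraries. Of 27998 gene identifiers, 27645 had a symbol in GENCODE M21, and the spans of Mobp and Opalin there differed slightly from the count table's.

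Counts were tested as deposited. Each region was fitted with edgeR 4.0.16 (TMM scaling, filterByExpr, quasi-likelihood test); the mean over regions with limma 3.58.1 (voom, animal as correlated block, consensus correlation 0.02); regions and region by treatment with edgeR and the animal as block. Adjusted p-values are Benjamini-Hochberg over all genes tested, with a threshold of 0.05. Levels are CPM with TMM factors over all libraries. Correlations used 100000 permutations, two-sided, whose smallest p is 1e-05. Mice are the replicates. The fits were tested on simulated data.

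Same-numbered vehicle and dexamethasone mice are different animals. Per the labels they shared a library plate in all pairs, 13 to 15 per region, so the number is treated as pairing libraries; their deviations from the group means correlated with medians of 0.05 (vCA1) to 0.21 (PFC) over genes.

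The 9 genes and the other lists were chosen with earlier results of these data known. Genes named by rule besides the 9 were the 3 with the smallest p of each list in the test over all regions and the 10 most like the 9 among genes with a mean of at least 5 CPM. Some genes that this rule picked are not reported here. Chosen after values were seen were the RIN minimum of 5, Mbp as covariate or reference, dentate genes as covariate, leaving out vCA1, leaving out the 4 libraries with Gabra6 counts, leaving out the high PFC libraries, removing plate means from the correlations, naming Apod, Zeb2, Nkx2-2 and St18, and the promoters printed. Libraries of a group all differed by more than sampling noise (smallest chi-square per degree of freedom 1.34).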

Additional observations from a re-analysis of the deposited data

Results flagged for a closer look

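Among the named genes, Pde4b differed in its response to dexamethasone between regions by a test of the difference itself (edgeR, region by treatment with the animal as block, adjusted p 0.000913). In PFC it was at 159 ± 25.0 CPM under vehicle (SD, n = 15) and 170 ± 30.5 CPM under dexamethasone (SD, n = 14), a log2 fold change of 0.10 ± 0.09 (SE). In CER it was at 159 ± 22.7 and 108 ± 13.3 CPM (SD, n = 15 each), a log2 change of -0.55 ± 0.08 (SE, adjusted p 6.61e-07). It was also lower past the threshold in AMY (-0.34), dCA1 (-0.56), vCA1 (-0.46) and vDG (-0.49), and not in PVN (-0.26) or dDG (-0.36).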

How the results depend on the processing

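Of 52 alternative values of the counts reported, 49 lay within 1.5 times the reported count. This tally compares counts only and takes no account of direction. Among the 49 is the fit averaged over regions with the level of other mature oligodendrocyte genes as a covariate. It again called 6 of the 9 genes, but 2 lower and 4 higher in place of 6 lower. For gene and region pairs past the threshold (8, all lower), the replicate block gave 13, the level of other mature oligodendrocyte genes as a covariate 21 (4 lower, 17 higher) and the Mbp level as a covariate 16 (14 lower, 2 higher); the cause was not tested. The block changed no other call. The other alternatives gave 6 to 9: DESeq2, upper-quartile scaling and RIN 8 each, an adjusted p under 0.1, no minimum count, or date and plate 9, libraries with a RIN of at least 5 6. With the level of other mature genes the averaged values of Mbp (0.26), Mag (0.023), Cnp (0.066) and Cldn11 (0.12) changed sign; in the remaining alternatives none of the 9 did. The region by treatment test called 0 of the 9 genes under all its alternatives. Vehicle neighbours past the threshold were 13 to 17, and 22 without the high PFC library; correlations past it were 52 to 54 with Pearson's r and 51 with Spearman's rho. Of the 62 pairs that did not pass, at most 6 changed sign under any alternative except the mature level (31). Per library, Opalin rests on few counts, and in the PFC library with 0 counts a level of up to 6.62 CPM (3 counts) would go unseen.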
